A study of Mus musculus with 10 samples.

Results

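The 52 protein-coding genes described here encode the Wnt ligands, their receptors and the proteins that restrain or amplify Wnt signalling. They were taken by name, from 49671 gene IDs counted in mouse skin, as Wnt, Fzd, Dkk, Sfrp and Rspo genes with a number, together with Wif1, Frzb, Axin2, Lrp5, Lrp6, Notum, Nkd1, Nkd2, Znrf3, Rnf43 and Porcn. They comprise 19 ligands, the ligand-modifying enzyme Porcn, 12 receptors and co-receptors, 4 R-spondins, 10 secreted antagonists and 6 feedback regulators. The rule reads gene names and no measured value.

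Poly(A) RNA of whole skin was sequenced from mice aged 22 weeks, 1 library per mouse, in 5 wildtype siblings (NPY +/+, called WT) and 5 homozygotes (NPY tet/tet, called NPYtet). Both groups belong to the strain B6;129S4-Npytm2Rpa/J, whose name denotes a mixed background of B6 and 129S4, and the labels name no treatment for either. WT comprised 2 mice labelled female and 3 labelled male, and NPYtet 3 labelled female and 2 labelled male. The labels do not say which cells or which promoter drive Npy in the mutants, and whole skin mixes epidermis, follicles, dermis, fat, muscle and vessels.

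Wnt ligands are secreted proteins that carry a lipid added by Porcn, and they bind Frizzled receptors together with the co-receptors Lrp5 and Lrp6. In the canonical branch this spares beta-catenin from degradation, and beta-catenin then acts with Lef1 and the Tcf factors on target genes, several of which, such as Axin2, feed back to dampen the signal. In skin the pathway is known for the formation of hair follicles and for the start and upkeep of their growth phase, when the dermal papilla and the matrix above it exchange Wnt ligands and inhibitors.

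Total counts ran from 23209405 to 53357695 reads per library. Npy, the altered gene, had 4 to 80 reads in WT and 3913 to 7686 in NPYtet libraries, so its level matched the genotype label of all 10. One NPYtet library went against its sex label. Replicate 1, deposited as female, held only 2 Xist reads beside 1513 reads of Ddx3y, which lies on the Y chromosome. It is named as labelled throughout and was entered as female in every fit with a sex term. No fit took it as male. NPYtet replicate 5 and WT replicate 2 stood apart, with 19953 and 21144 genes with a read (24710 to 26323 in the others) and scaling factors of 0.652 and 0.696, and NPYtet replicate 5 held 9.27% mitochondrial reads (1.86% to 3.03% in the others). Markers of basal keratinocytes, fibroblasts, adipocytes, skeletal muscle and vessels were all present, as whole skin would hold, and no marker was at 0 in all libraries. In bulk skin, fewer cells of a type and less RNA per cell cannot be told apart.

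Of the 52 genes, 47 had enough reads to be tested for genotype with edgeR's quasi-likelihood test, fitted to sex and genotype over 18060 genes. The other 5 were the ligands Wnt1, Wnt8a and Wnt8b and the antagonists Dkk1 and Dkk4, which block the co-receptors. Wnt8a had at most 43 reads in any library (WT replicate 4) and Wnt8b at most 3. Dkk1 had 26 reads in WT replicate 1, 8 in WT replicate 3, 6 in NPYtet replicate 2, 1 in WT replicate 4 and 0 in the other 6 libraries, where up to 3 reads remain possible by counting error alone. At these depths 3 reads correspond to between 0.0497 and 0.199 CPM (reads relative to the scaled library total).

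Levels between genes were compared as CPM per kilobase of merged exon length, averaged over all 10 libraries (SD, n = 10). Wnt4 led the ligands at 27.6 ± 10.9 CPM per kilobase, followed by Wnt10a at 22.7 ± 11.6 and Wnt7b at 19.1 ± 15.7. These 3 are ligands known from epidermis and follicle, and their spreads overlapped. Fzd1 (23.2 ± 7.07), Fzd2 (20.9 ± 13.8) and Fzd7 (20.1 ± 4.73) led the receptors, again within each other's spread, and the co-receptors Lrp5 and Lrp6 were at 12.1 ± 6.21 and 4.81 ± 1.60 CPM per kilobase. Among secreted antagonists Sfrp1, Sfrp5 and Dkk3 stood at 16.8 ± 7.22, 15.1 ± 16.6 and 13.2 ± 4.18. The first 2 bind Wnt proteins outside the cell, and the SD of Sfrp5 exceeded its mean. Among R-spondins, which strengthen Wnt signalling by removing the receptor-degrading ligases Rnf43 and Znrf3, the order was Rspo1 (6.43 ± 1.75), Rspo4 (1.77 ± 1.36) and Rspo3 (1.097 ± 0.832). The feedback inhibitors Nkd2, Axin2 and Nkd1 were at 8.76 ± 5.03, 8.11 ± 2.29 and 4.38 ± 1.095 CPM per kilobase.

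No member differed between the genotypes after adjustment over all genes (edgeR, 0 of 47). Over all 18060 genes 1 passed, or 0.00554%, and that gene was Npy. DESeq2 also called 0 of 47, against 35 of 18060 genes (0.194%), and limma voom called 0 of 47, against 2 genes (0.0111%). At an unadjusted p under 0.05, 7 of 47 members were lower in NPYtet and 0 were higher. Among all genes tested 386 (2.14%) were lower and 263 (1.46%) higher. DESeq2 gave 5 members lower and 0 higher, and limma voom gave 4 lower and 1 higher (Wnt7a). For DESeq2 and limma voom the shares over all genes at that threshold were not counted. The median log2 fold change (NPYtet minus WT) was -0.24 over the 47 members and -0.01 over all genes. Of the members 32 were below 0 and 15 above, a share of 68.1% below against 51.2% of all genes. The 2 groups overlapped in every tested member (0 of 47 without overlap), while 55 of all genes tested (0.305%) had no overlap. The 7 members were Wif1, Nkd2, Rspo4, Fzd5, Wnt10b, Fzd1 and Fzd10, and each had an edgeR adjusted p = 0.9995.

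**Figure D1:**
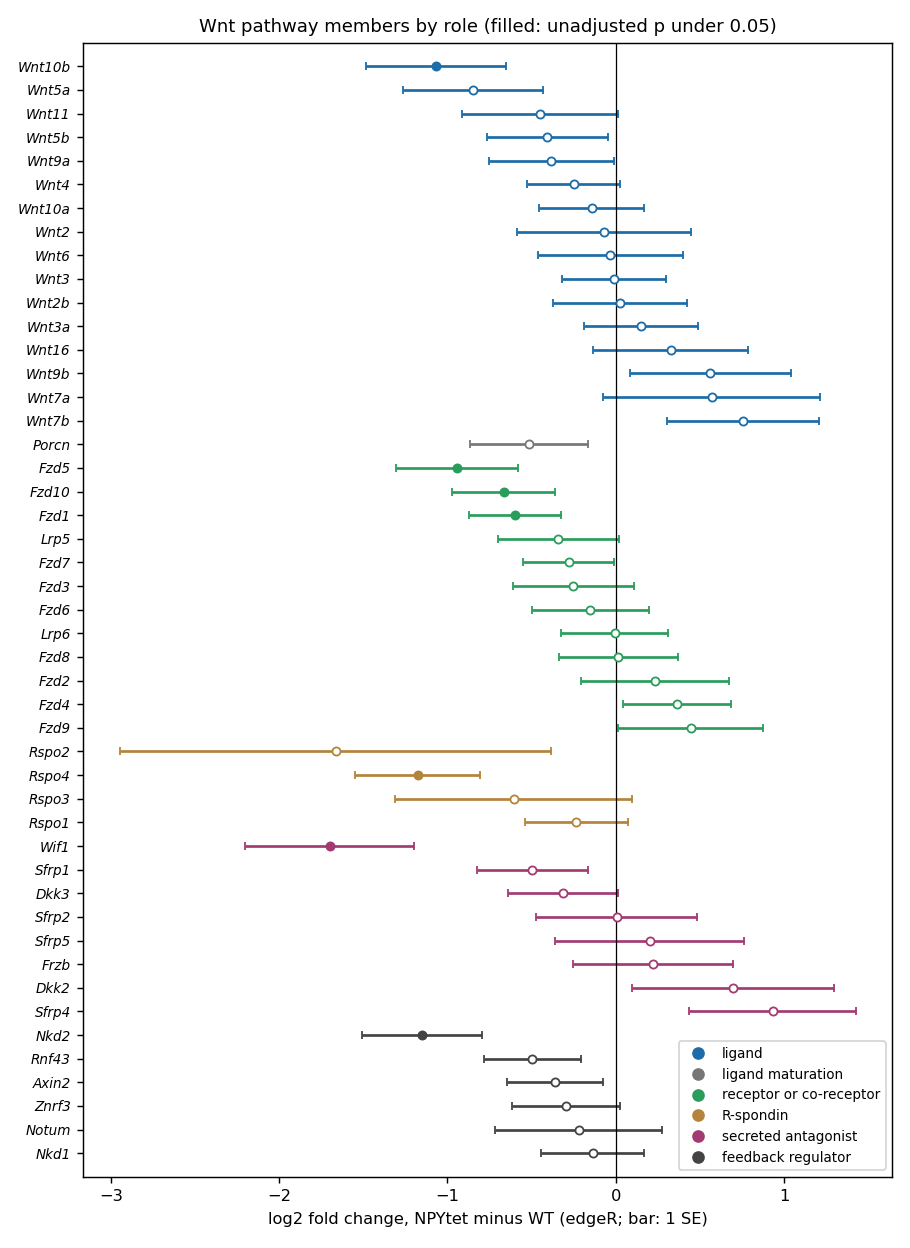
Log2 fold change of each of the 47 tested members (NPYtet minus WT, edgeR, horizontal bar 1 SE), grouped and coloured by role. Filled points mark the 7 members with an unadjusted p under 0.05, from Wif1 at -1.70 to Fzd1 at -0.60, all left of 0, and none passed after adjustment.

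Among the secreted antagonists Wif1, which binds Wnt ligands directly, had the lowest fold change. It spans 121033960 to 121100650 of chromosome 10 on the forward strand (mm10, ENSMUSG00000020218). In WT replicates 1 to 5 it stood at 58.3, 9.41, 13.1, 49.1 and 11.9 CPM. In NPYtet replicates 1 to 5 it stood at 10.6, 11.2, 9.96, 7.53 and 5.76 CPM. WT replicates 1 and 4 were far above the other 8 libraries, and the remaining 3 WT libraries overlapped or lay just above the NPYtet range. WT averaged 28.4 ± 23.4 CPM and NPYtet averaged 9.01 ± 2.29 CPM (SD, n = 5 each). The fitted log2 fold change was -1.70, with an SE of 0.50 and an edgeR adjusted p = 0.9995. Without WT replicate 1 the value was -1.11, without WT replicates 1 and 4 together it was -0.40, and adding a hair score (explained with the follicle markers) gave -1.03. With no filter on low counts Wif1 passed in edgeR (log2 fold change -1.72, adjusted p = 0.000694), in a fit that called 409 of 32857 genes, and its adjusted p ranged from 0.000694 to 1 across alternatives.

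Of the 8 antagonists tested, Wif1 included, 5 had fold changes above 0 and 3 below, with a median of 0.10. Sfrp1 had -0.50 (SE 0.33), and without WT replicate 1 it was -0.18. Sfrp4 had 0.93 (SE 0.49) and Dkk2, an antagonist acting on Lrp5 and Lrp6, had 0.70 (SE 0.60). With each library left out Sfrp4 ran from 0.62 (without NPYtet replicate 2) to 1.25 (without NPYtet replicate 1). The value for Dkk2 was -0.17 without NPYtet replicate 5 and 1.002 without NPYtet replicate 1. Dkk3, Sfrp2, Sfrp5 and Frzb lay between -0.31 and 0.22.

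Among the feedback regulators all 6 had fold changes below 0, with Nkd2 the lowest. Nkd2 encodes a protein that binds Dishevelled and dampens the signal, and lies on chromosome 13 at 73818534 to 73847631 (reverse strand, ENSMUSG00000021567). WT replicates 1 to 5 held 87.4, 43.3, 28.7, 84.9 and 40.2 CPM, and NPYtet replicates 1 to 5 held 32.6, 21, 32.6, 33.0 and 19.4 CPM. WT replicates 1 and 4 were again the 2 highest, and WT replicate 3 lay inside the NPYtet range. The log2 fold change was -1.15 (SE 0.36), and -0.57 without WT replicates 1 and 4. Axin2, a widely used readout of canonical signalling, was at 42.9 ± 17.7 CPM in NPYtet against 46.4 ± 6.25 CPM in WT (SD, n = 5 each), with a log2 fold change of -0.36 (SE 0.28). NPYtet replicate 5 had the lowest Axin2 at 19.2 CPM, and without it the value was -0.12. With all libraries and no sex term in the fit Axin2 was at -0.11. Rnf43, Znrf3, Notum and Nkd1 lay between -0.50 and -0.14. With the hair score in the fit Notum was at 0.42 and Nkd1 at 0.12, and the other 4 stayed below 0.

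Among the ligands Wnt10b, which is known for promoting follicle growth, had 20.99, 8.78, 8.84, 17.2 and 4.24 CPM in WT replicates 1 to 5. It had 8.19, 3.82, 6.53, 10.97 and 4.17 CPM in NPYtet replicates 1 to 5. The log2 fold change of Wnt10b was -1.07 (SE 0.42), and -0.44 without WT replicates 1 and 4. Wnt5a, a ligand of the non-canonical branch, showed the same 2 high libraries, with 75.1, 15.5, 33.7, 76.3 and 24.2 CPM in WT and 38.2, 24.6, 29.7, 31.1 and 14.6 CPM in NPYtet. Between genotypes it differed by -0.85 on the log2 scale (SE 0.42), short of an unadjusted p under 0.05, and the value was -0.41 without WT replicate 4 and -0.03 without WT replicates 1 and 4. Of the other 14 ligands tested, 6 had values above 0 and 8 below. Wnt4 and Wnt7b, 2 of the 3 most abundant, were at -0.25 (SE 0.28) and 0.76 (SE 0.45), and Wnt10a was at -0.14 (SE 0.31). Wnt4 was at -0.10 without WT replicate 2, and Wnt7b was at 0.08 without NPYtet replicate 5, which held 295 CPM against 50.6 to 92.8 CPM in the other NPYtet libraries. Porcn was at -0.52 (SE 0.35). Genes on the opposite strand overlap exons of Wnt5a, Wnt7b, Fzd5 and 6 other members, and had at most 43 reads in any library.

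**Figure D2:**
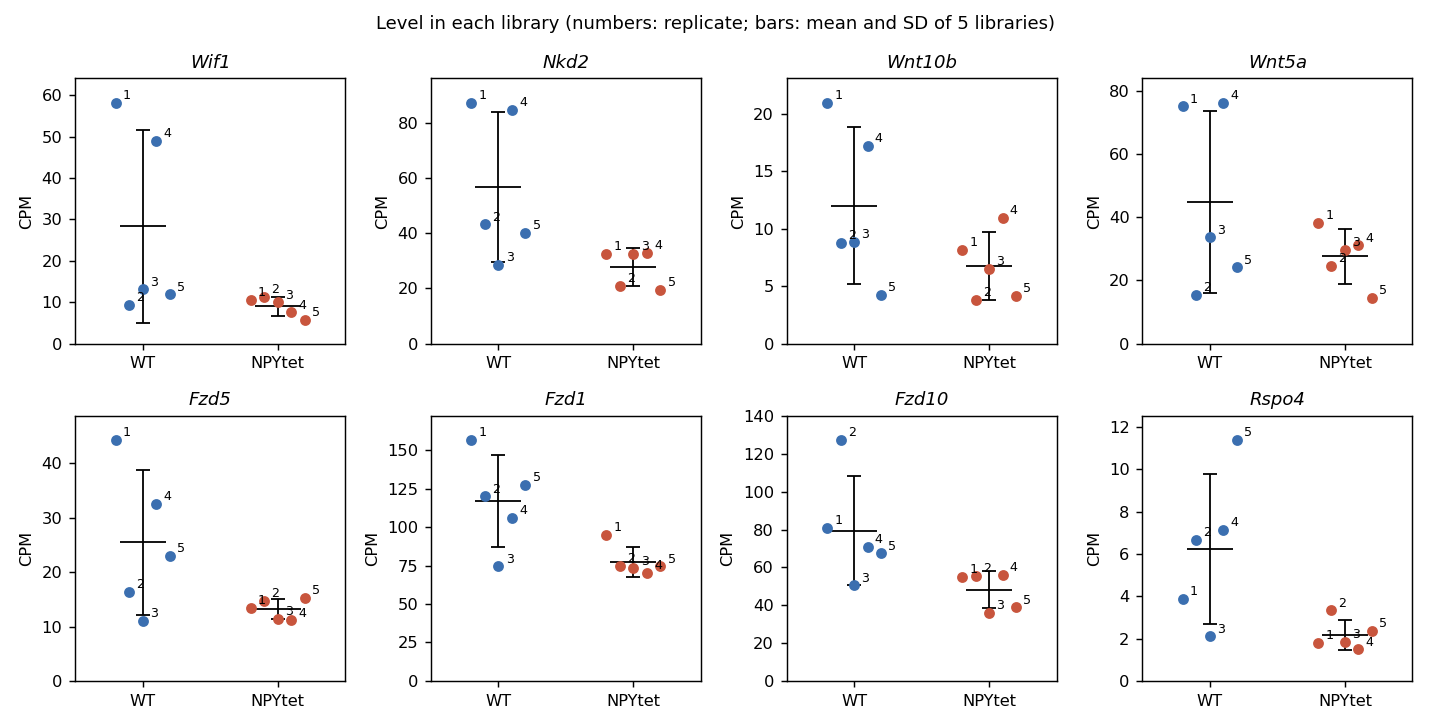
CPM of 8 members in each library, WT in blue and NPYtet in red, with the replicate number beside each point and the mean and SD of 5 libraries in black. WT replicates 1 and 4 lie above the rest for Wif1, Nkd2, Wnt10b, Wnt5a and Fzd5, whereas WT replicate 5 is highest for Rspo4 at 11.4 CPM and WT replicate 2 for Fzd10 at 128 CPM.

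Among the 12 receptors and co-receptors, 3 Frizzled genes had an unadjusted p under 0.05. Fzd5 (chromosome 1, 64730558 to 64737751) had 44.3, 16.4, 11, 32.5 and 23 CPM in WT replicates 1 to 5 and 13.5, 14.7, 11.4, 11.1 and 15.3 CPM in NPYtet replicates 1 to 5. For Fzd5 the log2 fold change was -0.94 (SE 0.36), and it was -0.39 without WT replicate 1 and -0.30 with the hair score in the fit. Fzd1 (chromosome 5, 4753839 to 4758035) had 157, 120, 74.5, 106 and 128 CPM in WT and 94.9, 75.0, 73.2, 70.2 and 74.4 CPM in NPYtet, a log2 fold change of -0.60 (SE 0.27), and -0.38 without WT replicate 1. WT replicate 3 lay within the NPYtet range of Fzd1 and the other 4 WT libraries lay above it. Fzd10 (chromosome 5, 128600844 to 128604093) was at 48.4 ± 9.92 CPM in NPYtet against 79.5 ± 29.0 CPM in WT (SD, n = 5 each), with a log2 fold change of -0.66 (SE 0.31), and -0.42 without WT replicate 2 and NPYtet replicates 1 and 5. The remaining 9 lay between -0.34 for Lrp5 and 0.44 for Fzd9.

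Rspo4, the R-spondin known for its part in nail growth, was highest in WT replicate 5, followed by WT replicate 4. It spans 151842927 to 151874668 of chromosome 2 on the forward strand (ENSMUSG00000032852). It held 3.87, 6.66, 2.12, 7.13 and 11.4 CPM in WT replicates 1 to 5 and 1.80, 3.34, 1.85, 1.49 and 2.38 CPM in NPYtet replicates 1 to 5. WT replicate 3 lay within the NPYtet range and the other 4 WT libraries lay above it. The log2 fold change was -1.18 (SE 0.37, edgeR adjusted p = 0.9995), -1.22 with the hair score in the fit and -1.13 without WT replicates 1 and 4. Rspo4 was the only member with an unadjusted p under 0.05 in each of those 2 fits, and it had none under 0.05 with a replicate block. Its highest libraries, WT replicates 2, 4 and 5, were all labelled male. By sex Rspo4 differed by 1.12 on the log2 scale, male minus female (SE 0.37, edgeR adjusted p = 0.102). DESeq2 and limma voom called it for sex. With no sex term in the fit its genotype value was -1.52 (SE 0.46). Rspo2, with at most 2.17 CPM, was at -1.67 (SE 1.28), and at 0.18 without WT replicates 1 and 4. Rspo3 and Rspo1 were at -0.61 (SE 0.71) and -0.24 (SE 0.31).

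The high values of WT replicates 1 and 4 ran through several roles. These were the 2 highest libraries for 10 of the 47 members, or 21.3%, as they were for 9.04% of all genes tested. The 10 were Wif1, Sfrp1, Nkd2, Rnf43, Znrf3, Wnt5a, Wnt10b, Fzd5, Fzd6 and Rspo2. WT replicate 2 and NPYtet replicate 5, which had the fewest genes with a read, were the 2 highest for 11 of 47 members (23.4%, and 13.7% of all genes), namely Wnt3a, Wnt6, Wnt7b, Wnt9a, Wnt9b, Wnt11, Porcn, Fzd2, Fzd8, Sfrp5 and Notum. Both pairs were chosen after the values were seen, so these counts are descriptions with no test, and the part of depth in the second was not tested.

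**Figure D3:**
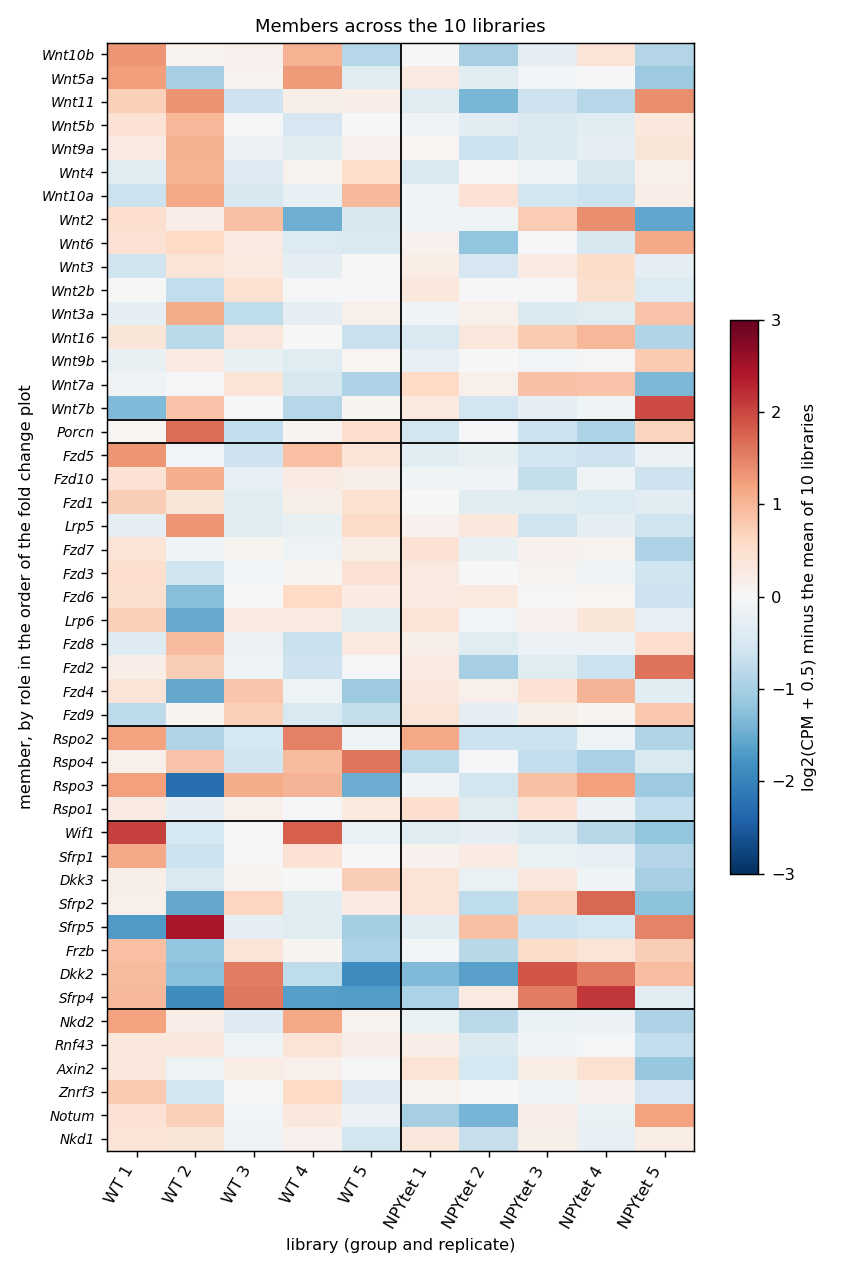
Colour gives log2(CPM + 0.5) minus the gene's mean over the 10 libraries, for 47 members in rows (by role) and libraries in columns. WT 1 and WT 4 share red cells in Wif1, Nkd2, Wnt10b and Wnt5a, while WT 2 and NPYtet 5 share red cells in Sfrp5, Wnt11 and Porcn.

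Markers of growing follicles and of pigment cells moved with some of these values. The 20 matched hair shaft and inner root sheath genes took 3.34%, 2.11%, 0.0356%, 2.35% and 0.877% of the reads in WT replicates 1 to 5. In NPYtet replicates 1 to 5 they took 0.00146%, 0.173%, 0.0163%, 0.00567% and 1.09%. The summed level of 4 melanocyte genes (Pmel, Tyrp1, Dct and Mlana) was 309, 61.9, 25.8, 224 and 39.6 CPM in WT and 18.9, 7.86, 20.6, 15.6 and 15.8 CPM in NPYtet. WT replicates 1 and 4 were highest in the melanocyte genes and in the share of hair reads. In summed CPM the 11 matched hair shaft genes alone were highest in WT replicate 2 (8647 CPM) and NPYtet replicate 5 (6749 CPM). WT replicates 1 and 4 held 4829 and 3990 CPM of them. The 9 inner root sheath genes were highest in WT replicate 1 (23714 CPM), then WT replicate 2 (21719 CPM), WT replicate 4 (16749 CPM) and NPYtet replicate 5 (9933 CPM). The low scaling factors of WT replicate 2 and NPYtet replicate 5 raise their CPM relative to their share of reads. In these 2 libraries Wif1 was at 9.41 and 5.76 CPM. The summed level of 6 dermal papilla genes ranged from 45.6 to 123 CPM in WT and from 39.5 to 71.1 CPM in NPYtet and was not high in WT replicates 1 and 4, at 56.8 and 53.1 CPM.

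**Figure D4:**
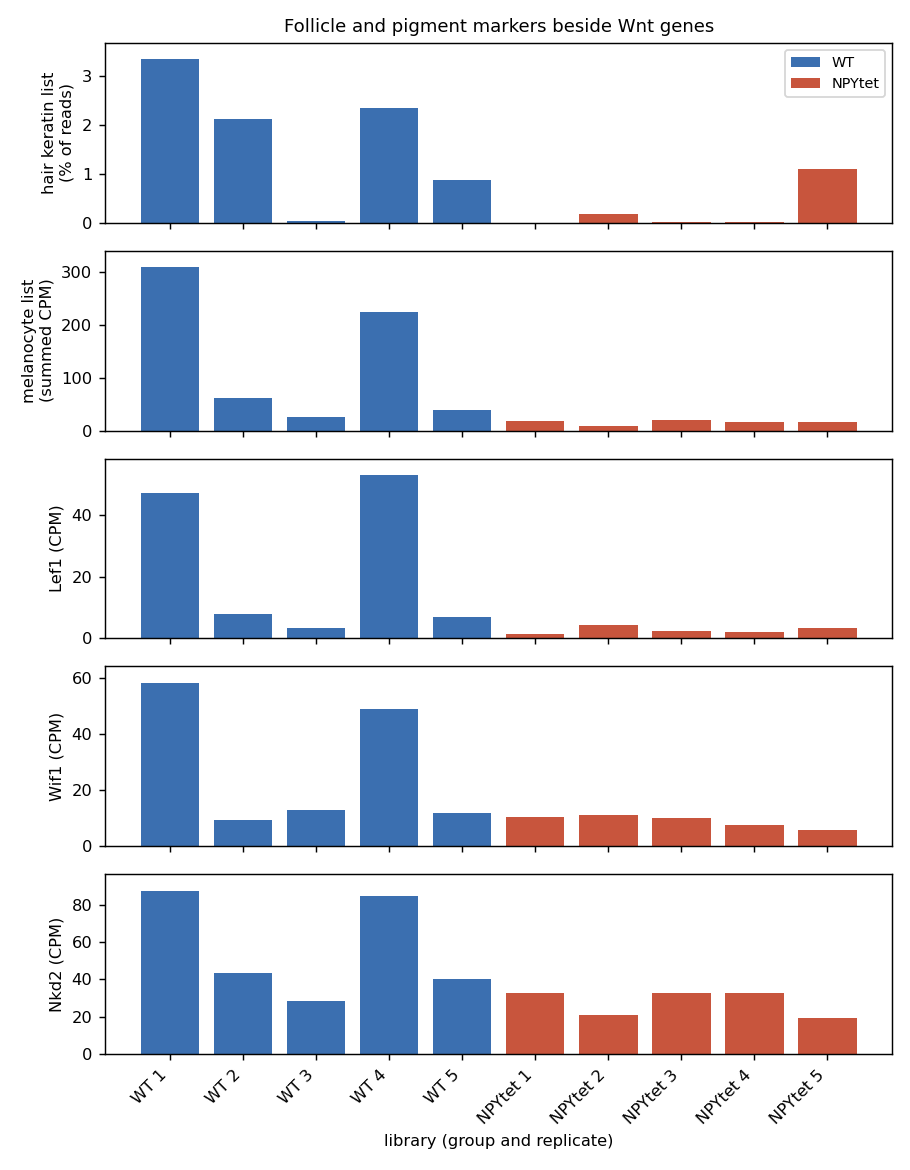
Share of reads from 20 hair keratin and sheath genes, summed CPM of 4 melanocyte genes, and CPM of Lef1, Wif1 and Nkd2 in each library, WT in blue and NPYtet in red. Lef1, Wif1 and the melanocyte genes peak in WT 1 and WT 4, while the hair keratin share is also raised in WT 2 at 2.11% and NPYtet 5 at 1.09%.

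To relate the members to follicle state, each gene was fitted to sex, genotype and a hair score, the mean centred log2 CPM of the same 20 hair genes. The slope passed after adjustment for 0 of 47 members in edgeR and for 195 of all genes (1.08%), among them 19 of the 20 genes that form the score. Limma voom also called 0 of 47, against 192 genes (1.06%). At an unadjusted p under 0.05 there were 2 of 47 members in edgeR, both positive. Of all 18060 genes, 609 had a positive and 210 a negative slope at that threshold. For the alternatives that follow, the matching counts over all genes were not taken. Limma voom gave 3 others (Fzd5, Nkd2 and Wif1, also positive), a replicate block gave Dkk2 and Sfrp4, and without WT replicate 5 or without NPYtet replicate 5 edgeR gave 0. Without WT replicate 4 edgeR gave 5, all positive. The score fitted alone gave the most, 9 positive and 4 negative, with Wif1, Fzd5 and Rspo4 among them. That slope also takes up differences by sex and genotype. Wnt11 had a slope of 0.20 log2 units per unit of score (SE 0.09) and Notum, a secreted enzyme that removes the Wnt lipid, had 0.24 (SE 0.10), each with an edgeR adjusted p = 0.997. Wnt11 stood at 44.4, 69.7, 17.5, 30.5 and 31.2 CPM in WT replicates 1 to 5 and at 21.03, 10.1, 17.3, 14.8 and 71.9 CPM in NPYtet replicates 1 to 5. It was thus high in NPYtet replicate 5 and WT replicate 2 and low in WT replicate 3 and NPYtet replicates 1 to 4. Its genotype log2 fold change was -0.45 (SE 0.46) without the score and 0.27 (SE 0.51) with it. Without NPYtet replicate 5 that fold change was -1.24, without WT replicate 1 it was -0.05, without WT replicate 2 it was -0.27, and without NPYtet replicate 2 it was -0.18, while limma voom on all libraries gave -0.68. In edgeR Wif1 had a slope of 0.14 (SE 0.11) and Nkd2 of 0.07 (SE 0.08). Without WT replicate 1 the slope was called in 15 genes and again in 0 members.

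Sequence before the start site was available for 33 of the 52 genes in RefSeq tables of GRCm38.p6. The letters CTTTG, the core recognised by Lef1 and Tcf proteins, occurred on either strand in the 250 bases before a start site in 13 of the 33 genes and in 48.6% of all 32851 promoters. The longer forms CTTTGAA or CTTTGAT, which contain that core, occurred in 3 of the 33 (Dkk1, Wnt5b and Wnt11) and in 7.48% of all promoters. The 33 genes had 37 promoters and were counted by gene, with a match at any start site. Their counts are therefore not on the same unit as the shares of promoters. The sequences that follow belong to 3 members that were highest in WT replicates 1 and 4, and Wnt11, which had the smallest p for the hair score. Capitals mark CTTTG on either strand.
Wif1, chr10:121033754-121033959, forward strand, ending where annotated exon begins: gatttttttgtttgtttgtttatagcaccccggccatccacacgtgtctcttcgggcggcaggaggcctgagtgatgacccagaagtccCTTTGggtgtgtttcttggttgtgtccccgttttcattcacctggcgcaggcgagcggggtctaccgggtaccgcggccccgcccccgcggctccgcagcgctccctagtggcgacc
Nkd2, chr13:73847632-73847881, reverse strand: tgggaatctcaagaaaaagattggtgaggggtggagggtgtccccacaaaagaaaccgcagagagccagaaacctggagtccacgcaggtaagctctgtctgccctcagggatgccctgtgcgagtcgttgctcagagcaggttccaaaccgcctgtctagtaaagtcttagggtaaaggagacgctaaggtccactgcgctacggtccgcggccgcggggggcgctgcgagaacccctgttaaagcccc
Wnt10b, chr15:98778151-98778400, reverse strand: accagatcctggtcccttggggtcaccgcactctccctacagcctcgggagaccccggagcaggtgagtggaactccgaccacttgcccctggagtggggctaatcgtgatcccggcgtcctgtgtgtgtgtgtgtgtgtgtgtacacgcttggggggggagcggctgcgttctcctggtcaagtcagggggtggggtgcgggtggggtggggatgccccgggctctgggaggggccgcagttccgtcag
Wnt11, chr7:98834862-98835111, forward strand: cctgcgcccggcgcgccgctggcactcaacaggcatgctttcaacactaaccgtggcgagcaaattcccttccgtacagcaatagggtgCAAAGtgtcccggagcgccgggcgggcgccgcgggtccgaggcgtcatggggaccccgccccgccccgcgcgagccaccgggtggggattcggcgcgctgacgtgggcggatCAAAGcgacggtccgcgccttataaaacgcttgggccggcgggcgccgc
The window of Wif1 held 1 match, those of Nkd2 and Wnt10b held 0, and that of Wnt11 held 2. The second in Wnt11 is part of a longer form on the reverse strand that begins 51 bases before the start site, and a second annotated start of Wnt11 held 0. A match describes letters only, and its absence says that these letters are not in this window.

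The rest of the pathway was read from 77 further genes in 6 lists, of which 75 were tested. None passed after adjustment in the main edgeR fit, 5 had an unadjusted p under 0.05, all lower in NPYtet (2.14% of all genes were), and the median log2 fold change was -0.12. Below 0 were 48 of the 75, or 64%, against 51.2% of all genes. DESeq2 called 1 of them, Lef1, where it called 0.194% of all genes. Lef1, the transcription factor that partners beta-catenin in the hair matrix, had 47.2, 7.98, 3.55, 53.2 and 6.98 CPM in WT replicates 1 to 5 and 1.35, 4.23, 2.31, 2.24 and 3.44 CPM in NPYtet replicates 1 to 5. Between genotypes Lef1 differed by -3.13 on the log2 scale (SE 0.73), -1.97 without WT replicate 1 and -0.93 without WT replicates 1 and 4, which were its 2 highest libraries. With the hair score in the fit Lef1 was at -1.48. With no filter on low counts, a fit that called 409 of 32857 genes, it passed in edgeR (adjusted p = 1.16e-11). Its relative Tcf7 had -0.69 (SE 0.32) and the co-repressor Tle3 had -0.64 (SE 0.30). Of 12 nuclear factors 9 were below 0.

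Of 11 tested further secreted or membrane modulators 10 were below 0, led by Bambi at -1.71 (SE 0.67). Bambi, a decoy receptor of TGF-beta that also affects Wnt signalling, had 65.9, 50.2, 4.56, 60.5 and 29.9 CPM in WT and 7.53, 8.18, 5.70, 4.03 and 45.6 CPM in NPYtet, and so was high in WT replicate 2 and NPYtet replicate 5 as well. With the hair score in the fit it was at -0.11, and without WT replicate 1 at -0.40. Bambi also passed in edgeR with no filter on low counts (adjusted p = 0.000219). Of 15 surface proteins 10 were below 0, with Ror2, a receptor for Wnt5a, at -0.70 (SE 0.32), and -0.45 without WT replicate 1. Among 6 target genes Edar, the ectodysplasin receptor, was at -1.16 (SE 0.49), and Ccnd1, a driver of cell division, at -0.76 (SE 0.36). Edar had 6.20 and 3.61 CPM in WT replicates 1 and 4 and 0.794 to 2.24 CPM elsewhere, and was at -0.77 without WT replicate 1 and at -0.18 without both. Ccnd1 was at -0.48 without NPYtet replicate 5. The 20 cytoplasmic proteins were divided 12 above and 8 below, with a median of 0.04 and 0 at an unadjusted p under 0.05, and the 11 planar polarity genes had a median of -0.34, also with 0.

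Sex was examined after the values were seen, through the sex term of the same fit and with the labels as deposited. Sfrp4 was the 1 member of 47 that passed, a share no higher than that of all genes (448, or 2.48%), and was described because it passed. Sfrp4, an extracellular Wnt-binding protein, had 31.7, 49.3, 8.09, 47.0 and 71.4 CPM in the libraries labelled female (WT replicates 1 and 3, NPYtet replicates 1, 3 and 4). It had 4.02, 4.78, 4.66, 19.3 and 12.5 CPM in those labelled male (WT replicates 2, 4 and 5, NPYtet replicates 2 and 5). The only low female-labelled value was that of NPYtet replicate 1, the library labelled female with Y-linked reads. Means by labelled sex were 41.5 ± 23.5 and 9.05 ± 6.70 CPM (SD, n = 5 each), and the log2 fold change, male minus female, was -2.29 (SE 0.51, edgeR adjusted p = 0.0345). Across alternatives its adjusted p ranged from 6.86e-08 with no filter to 1 with a replicate block. In that block the sex term rests on replicate 4 alone, the only number whose WT and NPYtet mice differ in labelled sex. Without NPYtet replicate 1 it was -2.56 (edgeR adjusted p = 0.00196). The call was lost when WT replicate 2, 3 or 5 or NPYtet replicate 3, 4 or 5 was left out, with values from -2.36 to -1.98.

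Dkk2 had the same 4 high libraries, at 29.1, 43.3, 56.0 and 44.1 CPM in WT replicates 1 and 3 and NPYtet replicates 3 and 4. It was at 28.5 CPM in NPYtet replicate 5 and at 3.59 to 8.52 CPM in the other 5. By sex Dkk2 differed by -1.85 on the log2 scale, with an SE of 0.62 and an edgeR adjusted p = 0.106. It passed without NPYtet replicate 1 (-2.11, edgeR adjusted p = 0.0273) and without NPYtet replicate 5 (-2.69, edgeR adjusted p = 0.0408), within adjusted p values of 1.99e-05 to 1 over its alternatives. Those 4 libraries were the 4 highest for 5 of 47 members (10.6%, and 5.48% of all genes), namely Dkk2, Sfrp4, Fzd4, Wnt2 and Wnt16. The 4 held 14149 to 20177 Xist reads and 0 Ddx3y reads. The other 6, NPYtet replicate 1 among them, held at most 13 Xist reads and 361 to 4078 Ddx3y reads. The summed level of the 5 fibroblast markers was 7470 to 8656 CPM in the 4 and 23657 to 58614 CPM in the other 6. The collagen genes Col1a1 (2206 to 3160 CPM against 8104 to 29288 CPM) and Col1a2 carried that difference, whereas Pdgfra was at 71.9 to 98.9 CPM in the 4 and 26.9 to 149 CPM in the other 6, and Dcn at 1708 to 2807 CPM and 898.5 to 4053 CPM. The summed basal keratinocyte markers were at 5584 to 8104 CPM in the 4 and 9028 to 55108 CPM in the other 6, carried by Krt5 and Krt14, while Trp63 (198 to 236 against 88.1 to 292 CPM) and Col17a1 (720 to 1387 against 578 to 1935 CPM) overlapped. Their part in these values was not tested.

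**Figure D5:**
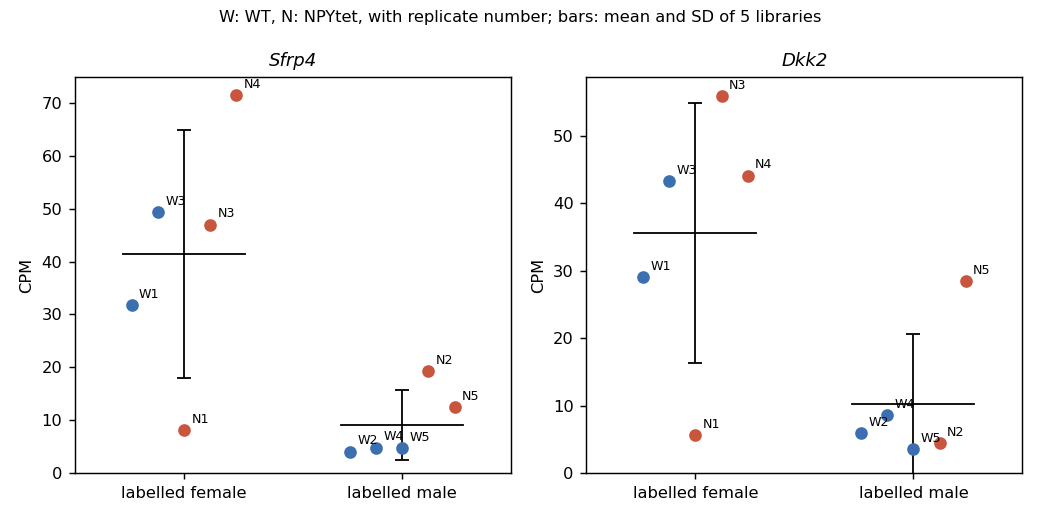
CPM of Sfrp4 and Dkk2 in each library by labelled sex, WT in blue (W) and NPYtet in red (N) with the replicate number, and the mean and SD of 5 libraries in black. NPYtet replicate 1, labelled female, sits at 8.09 CPM for Sfrp4 and 5.61 CPM for Dkk2, among the male-labelled libraries.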

How the data were processed

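Skin RNA of 10 mice was sequenced as poly(A) libraries. The authors deposited raw counts (whole reads) for each Ensembl gene, and the submitters' processing notes name DESeq2 1.30.1, STAR 2.5.2, Trimmomatic 0.36, FastQC 0.11.8 and bcl2fastq, with build mm10. Neither the annotation release nor whether the counting used strand is given in the sources used here, so reads of a gene and its antisense partner cannot be told apart. Of 49671 IDs, 49412 matched GENCODE M21, and the other 259 took 0.019% of reads.

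Tests used edgeR 4.0.16 under R 4.3.3. Genes passed filterByExpr on genotype (minimum count 10, minimum total 15), TMM gave the scaling factors, and a quasi-likelihood test with robust dispersions was fitted to sex and genotype, with Benjamini-Hochberg adjustment over all genes and a threshold of 0.05. DESeq2 1.42.0, limma 3.58.1 (voom with quality weights), other scalings and filters, a replicate block, the hair score as a covariate and leaving out libraries were alternatives. Another left out the sex term, which otherwise used the labels as deposited. The fits were tested on simulated data. The hair score is the mean centred log2 CPM of 20 of 21 listed genes, as Krt85 was not matched. Log2 CPM for scores adds a prior count of 2. A mouse is the replicate, as far as the labels say.

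Members and lists were chosen with earlier results of these data known. Members described in full were those with an unadjusted genotype p under 0.05 or a called slope on the hair score, and the 3 with the highest level per kilobase of each role. From each list of other pathway genes up to 4 with the smallest p could be named. Wnt5a, Wnt11, Notum, Rspo2, Sfrp4 and Dkk2 were described, and the sex comparison, the pairs of highest libraries and the fit without WT replicates 1 and 4 were added, after the values were seen.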

Additional observations from a re-analysis of the deposited data

Results flagged for a closer look

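In 32 groups of 5 libraries, from some of the members described, 4 had a single library standing far from the other 4 in CPM, where chance flags about 1 group in 20. The 4 were Wnt7b, Wnt11, Fzd1 and Rspo2, each in NPYtet. Other members, Sfrp5 and Fzd2 among them, were not examined in this way. Sfrp5 was at 108 CPM in WT replicate 2, against 5.68 to 16.0 CPM in the other WT libraries. Fzd2 was at 205 CPM in NPYtet replicate 5, against 32.7 to 79.1 CPM in the other NPYtet libraries. Wnt7b reached 295 CPM in NPYtet replicate 5, above 50.6 to 92.8 CPM in the other NPYtet libraries, and Wnt11 reached 71.9 CPM in the same library, above 10.1 to 21.03 CPM. That library also had the fewest genes with a read, 19953. Fzd1 was at 94.9 CPM in NPYtet replicate 1, against 70.2 to 75.0 CPM in the other 4. Rspo2 was at 1.57 CPM in NPYtet replicate 1, against 0 to 0.344 CPM.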

How the results depend on the processing

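Over all alternatives for genotype, no member was called, except Wif1 with no filter on low counts. Genes called numbered 35 in DESeq2, 2 in limma voom and 409 of 32857 with no filter (1 of 52 members). They numbered 0 without NPYtet replicates 1 and 5 and WT replicate 2. With each library left out they numbered 1 to 8, the 8 without WT replicate 3. Members with an unadjusted p under 0.05 numbered 7, and 1 (Rspo4) without WT replicate 1 and 0 with a replicate block. They numbered 10 without WT replicate 3 (8 lower, with Sfrp4 and Wnt7b higher) and 10 without NPYtet replicate 1 (8 lower, with Sfrp4 and Dkk2 higher). Without NPYtet replicates 1 and 5 and WT replicate 2 there were 9 lower and 3 higher. Matching counts over all genes at that threshold were taken for the main fit only. With the hair score as a covariate 8 of 47 genotype values turned direction, none of them called, namely Wnt11 (0.27), Notum (0.42), Wnt6 (0.39), Nkd1 (0.12), Lrp6 (0.09), Fzd8 (-0.02), Wnt2b (-0.32) and Sfrp2 (-0.51). Among members described in full, the values of Rspo2 (0.18 without WT replicates 1 and 4) and Dkk2 also turned, and Dkk2 ran from -0.17 to 1.002 with each library left out. The labels do not say whether the replicate numbers pair the mice. Same-numbered libraries correlated between -0.256 and 0.644, which cannot settle it, since a correlation over all genes also carries other differences between libraries. With a replicate block 1 gene and 0 members were called for genotype, with Wif1 at -0.90. In limma voom Wif1 was at -1.02 and Nkd2 at -0.44. For the hair score slope 352 genes were called with no filter and 352 with the score alone, 15 to 218 with each library left out, and 0 members in each of these. For sex, genes and members called were 2316 and 10 in DESeq2, 5590 and 14 in limma voom, 2380 and 8 with no filter, 0 and 0 with a replicate block, and 949 and 2 without the 3 libraries named above. With the block the sex term rests on replicate 4 alone, so the lack of calls there says little about sex. With each library left out they ran from 58 to 2725 genes and from 0 to 9 members, the 9 without WT replicate 4. The cause of these changes was not tested.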

Other observations

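Among the 75 other pathway genes tested, 2 surface proteins passed for sex, a share close to the 2.48% of all genes, a comparison added after the values were seen, and were named for that reason. Gpc3, a heparan sulphate proteoglycan encoded on the X chromosome, had 134, 77.5, 51.7, 78.5 and 89.0 CPM in the libraries labelled female (WT replicates 1 and 3, NPYtet replicates 1, 3 and 4). It had 4.97, 31.2, 15.6, 26.8 and 15.5 CPM in those labelled male, so the labelled sexes did not overlap. Its log2 fold change, male minus female, was -2.20 (SE 0.44, edgeR adjusted p = 0.0215, and 9.77e-08 to 1 across alternatives). Reck, a membrane protein that restrains matrix proteases and takes part in Wnt7 signalling, had 33.7, 42.5, 64.7, 42.0 and 48.1 CPM in the same female-labelled libraries and 6.61, 17.3, 20.1, 21.3 and 15.8 CPM in the male-labelled ones. Its log2 fold change was -1.43 (SE 0.33, edgeR adjusted p = 0.0365, and 0.00193 to 1 across alternatives). In both genes NPYtet replicate 1 lay with the female-labelled libraries, unlike in Sfrp4 and Dkk2. The call of Gpc3 was lost when WT replicate 3 or NPYtet replicate 3 or 4 was left out, and that of Reck without WT replicate 3 or any NPYtet library, with values from -2.26 to -2.17 and from -1.499 to -1.29. Both were also lost with a replicate block, where the sex term rests on replicate 4 alone.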
